A study of Mus musculus with 10 samples.

Results

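Cathepsins, the subunits of the vacuolar proton pump (V-ATPase) and the lysosomal membrane glycoproteins Lamp1 and Lamp2 were followed in mouse liver. They were chosen by name, after the accession of each array probe was matched to RefSeq mouse symbols: every symbol that begins with Cts and a further letter or digit (23 genes), every symbol beginning Atp6v or Atp6ap (25 genes), and Lamp1 and Lamp2. These were 50 of the 21613 genes that the probes named, measured by 57 probes. Of the 50, 35 had a probe bright enough to be tested: 13 cathepsins, 20 V-ATPase genes and both Lamp genes.

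The livers came from 10 male miR-221 transgenic mice (strain TG221 on a B6D2F2 background), with 1 single-colour Agilent array per mouse. All 10 mice received carbon tetrachloride (CCl4), a liver toxin, at 20% by volume in olive oil, by gavage 3 times a week for 14 weeks from an age of 4 to 6 weeks. In 6 of them, daily metformin by mouth, 300 mg per kg body weight, was added 3 weeks after the first CCl4 dose, and the other 4 mice, called the CCl4 mice below, had none. Tissue was taken at an endpoint given as 24 weeks. The promoter that drives the transgene is not given in the sources used here, and no group without CCl4 or without the transgene was analysed, so no value below says how either of them affects these genes. The labels give the tissue as liver and the cell type as hepatocellular carcinoma, without saying which part of each liver was taken.

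Lysosomes break down what a cell takes up and what it delivers by autophagy. The V-ATPase acidifies them: its V1 sector, on the cytosolic side, hydrolyses ATP and turns a rotor, and its V0 sector, in the membrane, carries protons inward. Cathepsins are proteases that work mostly at that low pH and are made as inactive precursors, while the Lamp proteins coat the inner face of the lysosomal membrane. The pump is also a platform on which the kinase mTORC1 and AMPK, the kinase that metformin is known to activate, are regulated, and the transcription factor TFEB can raise many lysosomal genes through short palindromic elements that hold CACGTG.

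Levels below are log2 of the array's processed spot intensity minus the 75th percentile of its non-control spots, so that 0 is that percentile and each step of 1 doubles the signal. A level can be compared between mice for a given gene, but not between genes, because probes differ in brightness. Differences are metformin minus CCl4, as log2 fold change ± SE with n = 6 and n = 4, and a gene was called where limma's adjusted p was below 0.05 over all 25171 tested features. The 75th percentile was 237 to 363 intensity units, no spot was saturated, and 51.2% to 54.9% of probes were well above background. All 6 metformin arrays lay on 1 slide and all 4 CCl4 arrays on another, so slide and scan cannot be told apart from the treatment for any value below. Within the slides, the CCl4 arrays were all in row 1, with 2 of the metformin arrays; the other 4 were in row 2. The tissue was bulk liver, in which fewer cells of a type and less RNA per cell cannot be told apart. Scaled to the arrays' added spike-in transcripts in place of the 75th percentile, every difference became 0.55 lower on the log2 scale, and the median of all tested features went from 0.11 to -0.45. The log2 spike-in signal above the 75th percentile also varied within groups. It was 3.78, 3.71, 3.24 and 3.26 on the CCl4 arrays and 3.82 to 4.26 on the metformin arrays. Standard errors could grow with this scaling, as from 0.087 to 0.20 for Atp6v0d1. Which scaling is nearer to the tissue was not tested.

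Both directions occurred among these genes, and more V-ATPase genes fell than rose. Of the 35 tested, 7 rose, 9 fell and 19 did not pass, which is 45.7% called, beside 44% of all tested features; over the members as a whole the share called was therefore near the background. Higher calls made up 20% of the tested members, beside 27.3% of all features, and lower calls 25.7%, beside 16.7%. Of the 20 V-ATPase genes, 4 rose and 8 fell (60% called), with a median log2 fold change of -0.13. Of the 13 cathepsins, 3 rose and 1 fell (30.8% called), with a median of -0.19, and neither Lamp gene was called. The 7 higher calls were Ctsa, Ctsb, Ctsh, Atp6v0a2, Atp6v0d2, Atp6v1d and Atp6v1f, and with spike-in scaling none of them was called and all but Atp6v0a2 and Atp6v0d2 turned negative. The 9 lower calls were Ctsf, Atp6v0a1, Atp6v0b, Atp6v0c, Atp6v0d1, Atp6v1b2, Atp6v1e2, Atp6v1h and Atp6ap1, and with spike-in scaling these were among 19 members called lower, beside 42.9% of all features. Of the 35 tested members, 15 (42.9%) were called with no overlap between metformin and CCl4 mice, beside 32% of all features (32.7% of all features showed no overlap, called or not). The called member whose groups overlapped was Atp6v0d2. Each fit was repeated under 22 other settings. Atp6v0c and Atp6v0d1 were called in all 22, Atp6v0a2, Atp6v1b2, Atp6v1e2, Atp6v1h and Ctsf in 21, Atp6ap1 in 20, Atp6v0b in 19 and Ctsa and Atp6v1d in 18. The calls lost most often were Ctsh (called in 16), Atp6v1f and Atp6v0d2 (15), Ctsb (13) and Atp6v0a1 (12).

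**Figure D1:**
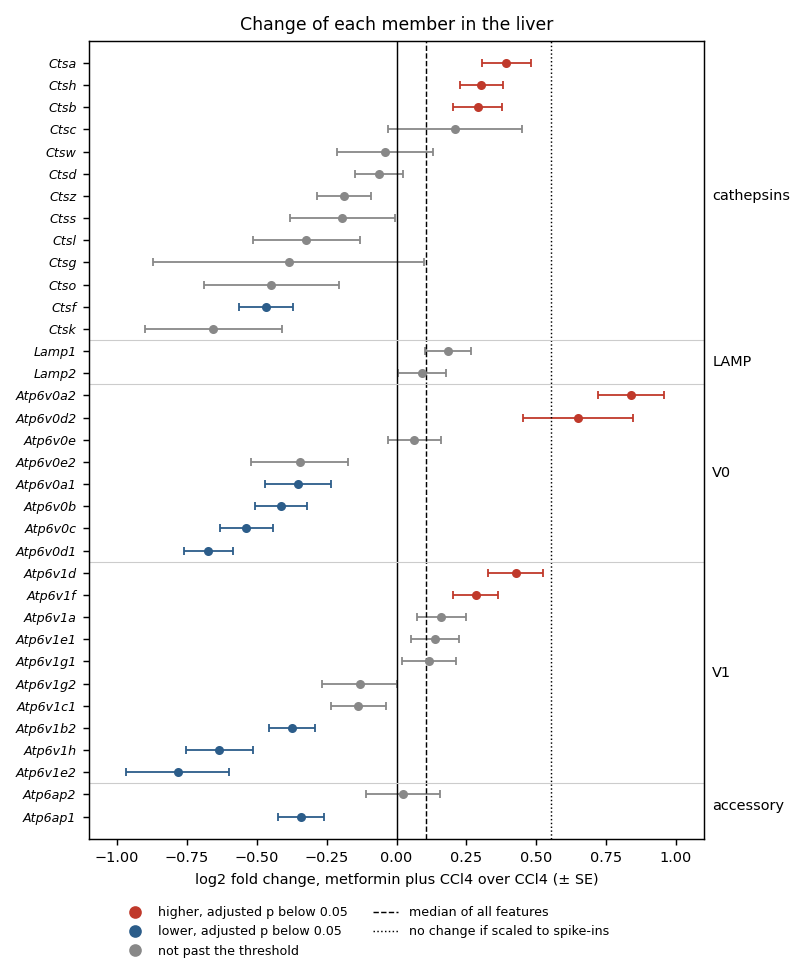
Log2 fold change (metformin plus CCl4 over CCl4, x axis, ± SE, n = 6 and 4) of the 35 tested genes, grouped by role and ordered by value; red and blue mark limma's adjusted p below 0.05, the dashed line is the median of all tested features (0.11) and the dotted line is where no change would lie if arrays were scaled to spike-ins. Changes run from -0.78 (Atp6v1e2) to 0.84 (Atp6v0a2), and of the 7 red points only Atp6v0a2 and Atp6v0d2 lie right of the dotted line.

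In the membrane sector, V0, 4 of 8 tested genes fell and 2 rose (50% lower and 25% higher, beside 16.7% and 27.3% of all features). The called genes included 2 forms each of subunits a and d, in opposite directions. A further form of subunit a, Tcirg1 (a3), lacks an Atp6v symbol and also fell, as given below. The proton-carrying ring is built of copies of the c subunit (Atp6v0c) and the related c'' subunit (Atp6v0b), and both fell. So did d1 (Atp6v0d1), which couples the ring to the rotor, and a1 (Atp6v0a1), a form of the large subunit that holds the proton path. Their counterparts a2 (Atp6v0a2), known from the Golgi and endosomes, and d2 (Atp6v0d2), known from kidney, osteoclasts and macrophages, rose, calls that were lost with spike-in scaling (0.28 and 0.097).

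Atp6v0d1 was at 4.17, 4.23, 4.13 and 4.32 in the CCl4 mice and at 3.44 to 3.74 (median 3.52) in the metformin mice. Every metformin mouse was below every CCl4 mouse. The difference was -0.67 ± 0.087, a 1.60-fold lower signal (adjusted p = 2.36e-04 in limma). The ring gene Atp6v0c read 5.35, 5.35, 5.08 and 5.11 against 4.50 to 4.80 (median 4.69), again with no overlap, and fell by 0.54 ± 0.096 (1.45-fold lower; adjusted p = 0.00141 in limma). Both genes were called in each of the 22 other fits tried, with log2 fold changes of -1.23 to -0.56 for Atp6v0d1 and -1.09 to -0.49 for Atp6v0c.

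Atp6v0b was at 4.11, 4.24, 4.07 and 4.07 in the CCl4 mice and at 3.60 to 3.95 (median 3.67) with metformin. The groups did not overlap, and the difference was -0.41 ± 0.092 (1.33-fold lower; adjusted p = 0.00471 in limma). Atp6v0a1 was at 3.94, 4.07, 4.01 and 3.95 against 3.44 to 3.91 (median 3.57). The highest metformin mice came close to the CCl4 mice without reaching them, and the difference was -0.35 ± 0.12 (1.28-fold lower; adjusted p = 0.0325 in limma). That call lay near the threshold, and its log2 fold change stayed at -0.41 to -0.31 whichever mouse was left out. In both slide-row fits it was -0.55 and still called (adjusted p = 0.0134 and 0.0181 in limma). Leaving out any 1 CCl4 mouse put the adjusted p at 0.0542 (mouse 1), 0.0846 (mouse 2), 0.0711 (mouse 3) or 0.0519 (mouse 4). Leaving out a metformin mouse put it at 0.0612 (mouse 1), 0.0585 (mouse 2), 0.0564 (mouse 3) or 0.0603 (mouse 5). Without metformin mouse 4 or mouse 6 the call was kept (adjusted p = 0.0164 and 0.0183 in limma). All limma fits tried spanned 0.00113 to 0.0874.

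Atp6v0a2 was at -0.65, -0.74, -0.94 and -1.07 in the CCl4 mice and at -0.16 to 0.23 (median -0.06) in the metformin mice. All 6 metformin mice were above all 4 CCl4 mice. It had the largest positive change of the 35, 0.84 ± 0.12 (1.79-fold higher; adjusted p = 3.66e-04 in limma), or 0.28 with spike-in scaling (adjusted p = 0.144; range over the fits 2.22e-04 to 0.144), the only fit in which its call was lost. Atp6v0d2 was at -2.10, -2.90, -2.01 and -2.27 against -2.02 to -1.35 (median -1.62), so the groups overlapped. Its difference was 0.65 ± 0.20 (1.57-fold higher; adjusted p = 0.0214 in limma), or 0.097 with spike-in scaling. It was lost without CCl4 mouse 2, the lowest of the group (0.46, adjusted p = 0.0565; range over the fits 0.0140 to 0.787), and by its dimmer probe it was 0.39 ± 0.32 (adjusted p = 0.341). The small e subunit was not called in either form: Atp6v0e differed by 0.064 ± 0.095, or by -0.49 with spike-in scaling, and Atp6v0e2 by -0.35 ± 0.17 (adjusted p = 0.612 and 0.129 in limma). Atp6v0e2 spread from 0.95 to 1.93 in the metformin mice, against 1.66 to 1.87 in the CCl4 mice, and passed without metformin mouse 6, its highest value (-0.44, adjusted p = 0.0391; range over the fits 0.00702 to 0.233).

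**Figure D2:**
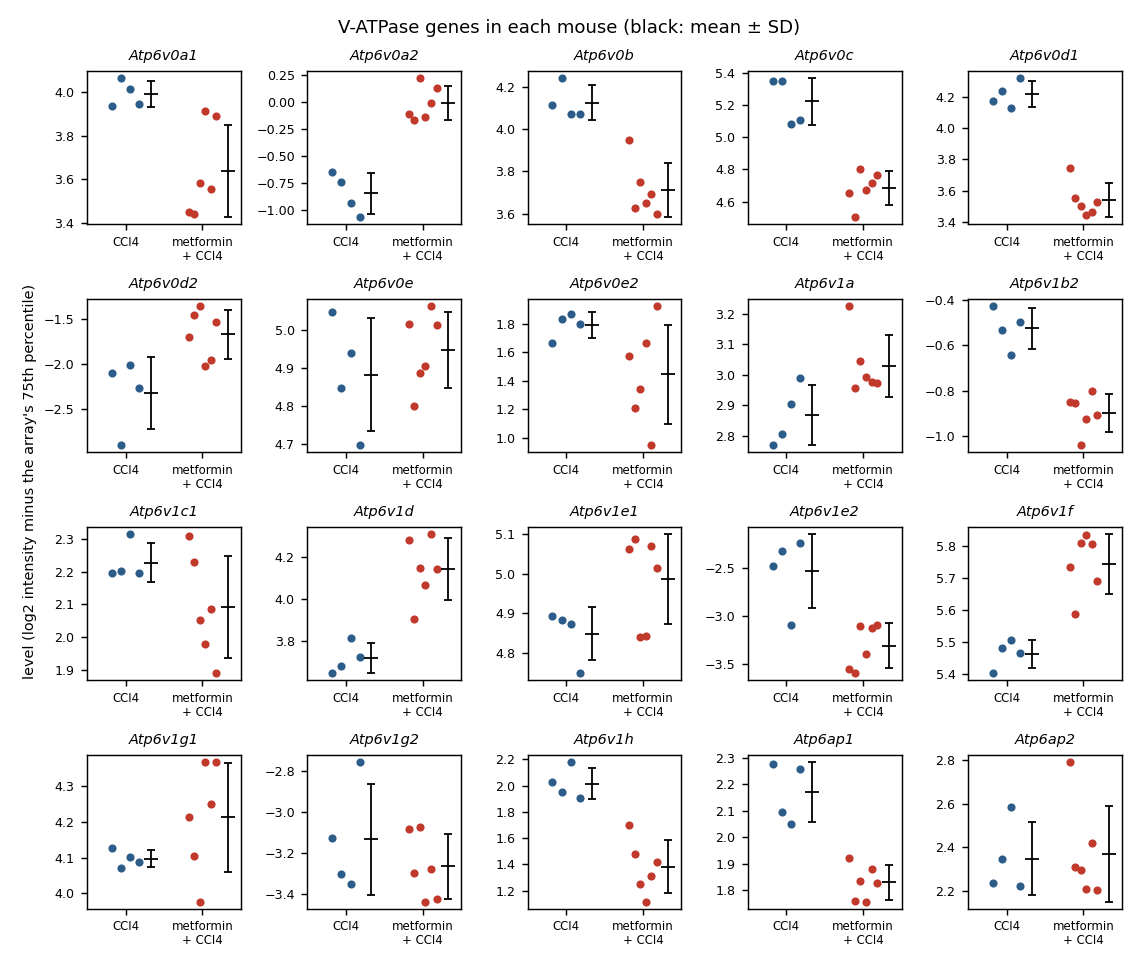
Level (log2 intensity minus the array's 75th percentile, y axis) of each of the 20 tested V-ATPase genes in the 4 CCl4 (blue) and 6 metformin plus CCl4 (red) mice; black bars are mean ± SD, and each panel has its own scale. Atp6v0c, Atp6v0d1 and Atp6v1h separate downward and Atp6v0a2 upward, while Atp6v0d2 and Atp6v0e2 overlap between the groups.

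The opposite changes within V0 can be put on a footing that no array-wide scaling alters, by taking the difference of both paralogs on the same array. Only the change of that difference has a meaning, since the offset between 2 probes reflects their brightness. Atp6v0a2 minus Atp6v0a1 was -4.58, -4.81, -4.95 and -5.02 in the CCl4 mice and -4.05 to -3.35 in the metformin mice, a shift of 1.19 ± 0.14 toward a2 (SE of the difference of means, n = 6 and 4). Atp6v0d2 minus Atp6v0d1 went from -6.28, -7.13, -6.14 and -6.59 to between -5.47 and -4.86, a shift of 1.32 ± 0.25 toward d2. Neither pair overlapped between the groups, so in every metformin mouse the balance of both pairs stood further toward a2 and d2 than in any CCl4 mouse. For subunit a this had to follow from the single genes, which each separated the groups, in opposite directions. It is therefore no further support, and how often other pairs of genes separate in this way was not computed. These shifts are given without a test, since the pairs were set side by side with the single-gene results known. The other 3 pairs shifted the other way, toward the form numbered 1 or without a number: Atp6v1e2 against Atp6v1e1 by -0.92 ± 0.24, Atp6v0e2 against Atp6v0e by -0.41 ± 0.18 and Atp6v1g2 against Atp6v1g1 by -0.25 ± 0.18, each with overlap.

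**Figure D3:**
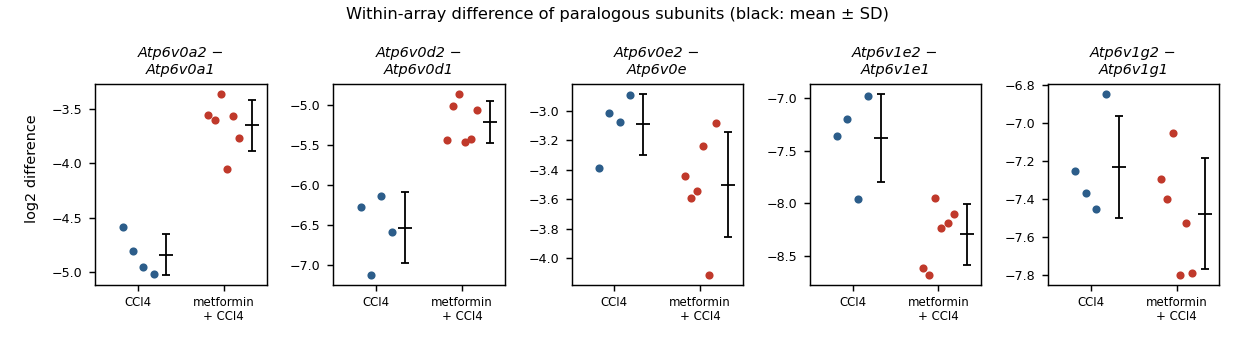
Difference of log2 levels of 2 paralogous subunit genes on the same array (y axis) in each CCl4 (blue) and metformin plus CCl4 (red) mouse, for 5 pairs; black bars are mean ± SD and each panel has its own scale. The first pair moves from a mean of -4.84 to -3.65 and the second from -6.53 to -5.21 with no overlap; the other 3 pairs overlap.

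In the cytosolic sector, V1, 2 of 10 tested genes rose, 3 fell and 5 were not called, with a median log2 fold change of -0.0081 (50% called, beside 44% of all features). The risers were subunits D (Atp6v1d) and F (Atp6v1f), which form the central rotor, and both turned negative with spike-in scaling (-0.13 and -0.27). The genes that fell were the regulatory subunit H (Atp6v1h), the B2 form of the nucleotide-binding subunit B (Atp6v1b2) and E2 (Atp6v1e2), a form of the stator subunit E known from testis.

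Atp6v1d was at 3.65, 3.68, 3.82 and 3.73 in the CCl4 mice and at 3.91 to 4.31 (median 4.15) with metformin. The groups did not overlap, and the difference was 0.43 ± 0.097 (1.34-fold higher; adjusted p = 0.00534 in limma), or -0.13 with spike-in scaling. Atp6v1f was at 5.40, 5.48, 5.51 and 5.46 against 5.59 to 5.84 (median 5.77). It too separated the groups, by 0.28 ± 0.080 (1.22-fold higher; adjusted p = 0.0158 in limma), or -0.27 with spike-in scaling. The call of Atp6v1f was also lost after median scaling (0.22, adjusted p = 0.122), after quantile normalization (0.13, adjusted p = 0.220), without the filter on dim probes (adjusted p = 0.0554) and in both fits on slide row (range over the fits 0.00448 to 0.221). Atp6v1d no longer passed once the row was a term in the fit (0.38, adjusted p = 0.0521 in limma, range 0.00263 to 0.588). With that term the estimate rests on the 2 metformin and 4 CCl4 arrays of row 1, so row and fewer arrays cannot be told apart.

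Atp6v1h, the subunit that helps to hold V1 on V0 and keeps detached V1 from hydrolysing ATP, was at 2.03, 1.95, 2.18 and 1.90 in the CCl4 mice and at 1.12 to 1.70 (median 1.37) with metformin. No metformin mouse reached a CCl4 mouse, and the difference was -0.63 ± 0.12 (1.55-fold lower; adjusted p = 0.00190 in limma). Atp6v1b2 was at -0.42, -0.53, -0.64 and -0.50 against -1.04 to -0.80 (median -0.88). Its groups did not overlap, with a difference of -0.37 ± 0.082 (1.30-fold lower; adjusted p = 0.00440 in limma). Atp6v1e2, a dim probe, was at -2.47, -2.32, -3.09 and -2.23 against -3.60 to -3.09 (median -3.26), where CCl4 mouse 3 stood level with the highest metformin mice. The difference was -0.78 ± 0.18 (1.72-fold lower; adjusted p = 0.00609 in limma), and it was lost with normexp background correction (-0.28, adjusted p = 0.0777; range over the fits 1.34e-04 to 0.0777).

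The other 5 V1 genes were not called. Subunit A (Atp6v1a), which holds the catalytic sites, differed by 0.16 ± 0.087, the stator subunits E1 (Atp6v1e1) and G1 (Atp6v1g1) by 0.14 ± 0.087 and 0.12 ± 0.096, and each turned negative with spike-in scaling (-0.39, -0.42 and -0.44). The stalk subunit C1 (Atp6v1c1) differed by -0.14 ± 0.098 and the G2 form of subunit G (Atp6v1g2), known from neurons, by -0.13 ± 0.14. So within V1 the catalytic A and the B2 subunit did not have the same call, and a test of the difference between them was not made.

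The accessory subunits help the pump to assemble and reach its membrane. Atp6ap1 (Ac45) was at 2.28, 2.10, 2.05 and 2.26 in the CCl4 mice and at 1.76 to 1.92 (median 1.83) in the metformin mice, with no overlap. It fell by 0.34 ± 0.083 (1.27-fold lower; adjusted p = 0.00723 in limma), and its second probe by 0.54 ± 0.12 (adjusted p = 0.00369). Atp6ap2, also known as the prorenin receptor, was at 2.24, 2.35, 2.58 and 2.22 against 2.20 to 2.79 (median 2.30). It overlapped fully and differed by 0.023 ± 0.13 (adjusted p = 0.902 in limma), with negative values of -0.043 after median scaling, -0.070 after quantile normalization, -0.53 with spike-in scaling and -0.061 without metformin mouse 1. With only the 6 arrays of slide row 1, every called V-ATPase gene kept its direction, and Atp6v0a2, Atp6v0a1, Atp6v0c, Atp6v0d1 and Atp6v1e2 were still called (1 higher and 4 lower, in place of 4 and 8).

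Among the cathepsins, 3 rose by 1.22-fold to 1.31-fold and 1 fell. Those that rose were Ctsa, a serine carboxypeptidase that also protects beta-galactosidase and neuraminidase in the lysosome, Ctsb, a broad cysteine protease, and Ctsh, a cysteine aminopeptidase; scaled to spike-ins their differences were -0.16, -0.26 and -0.25 and not called. The cathepsin that fell was Ctsf, a cysteine protease. Ctsd, the main aspartic protease of lysosomes, and Ctsl, a cysteine endopeptidase, did not pass.

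Ctsa was at 6.38, 6.43, 6.40 and 6.32 in the CCl4 mice and at 6.59 to 6.93 (median 6.82) with metformin. Every metformin mouse was above every CCl4 mouse, by 0.39 ± 0.088 on average (1.31-fold higher; adjusted p = 0.00496 in limma), or -0.16 with spike-in scaling. Its second probe gave 0.53 ± 0.13 (adjusted p = 0.00607), also without overlap, and also less than the 0.55 that spike-in scaling takes off. Ctsh was at 7.11, 7.26, 7.18 and 7.17 against 7.37 to 7.60 (median 7.47), again without overlap, and differed by 0.30 ± 0.077 (1.23-fold higher; adjusted p = 0.00923 in limma), or -0.25 with spike-in scaling.

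Ctsb was at 6.66, 6.53, 6.52 and 6.51 against 6.72 to 7.02 (median 6.81). CCl4 mouse 1 lay just below the lowest metformin mouse and the other CCl4 mice lower. The difference was 0.29 ± 0.087 (1.22-fold higher; adjusted p = 0.0205 in limma), or -0.26 with spike-in scaling, and with CCl4 mouse 2 or mouse 3 left out it no longer passed (adjusted p = 0.0540 and 0.0524; range over the fits 0.0131 to 0.263). Ctsf was at 2.02, 2.23, 2.19 and 1.95 in the CCl4 mice and at 1.51 to 1.83 (median 1.60) with metformin. Those groups did not overlap, and it fell by 0.47 ± 0.097 (1.38-fold lower; adjusted p = 0.00326 in limma). Median scaling and quantile normalization also ended the calls of Ctsh (0.24 and 0.15; adjusted p = 0.0837 and 0.132, range over the fits 0.00133 to 0.244) and Ctsb (0.22 and 0.14; adjusted p = 0.111 and 0.263). With only the 6 arrays of slide row 1, all 4 of these cathepsins kept their direction and none passed (adjusted p = 0.0929, 0.144, 0.0902 and 0.126 for Ctsa, Ctsb, Ctsf and Ctsh).

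Ctsl was at 8.67, 8.87, 8.76 and 7.78 in the CCl4 mice and at 8.05 to 8.34 (median 8.19) in the metformin mice. Of the CCl4 mice 3 were above all metformin mice and mouse 4 was below all of them, so the mean difference of -0.32 ± 0.19 did not pass (adjusted p = 0.195 in limma). Without that mouse it was -0.57 (adjusted p = 0.00154 in limma, range over the fits 0.00154 to 0.488). With spike-in scaling and all 10 mice it was -0.88 (adjusted p = 0.00335 in limma). The verdict on Ctsl thus turned on 1 of the 10 livers and on the scaling. Ctsd was at 5.74, 5.80, 5.71 and 5.75 against 5.48 to 5.83 (median 5.70). The metformin mice straddled the CCl4 mice, and the difference was -0.061 ± 0.086 (adjusted p = 0.591 in limma).

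Several cathepsins are best known from blood-derived or bone cells. Ctsk, the collagen-cleaving protease of osteoclasts, was at -1.06, -0.82, 0.03 and -0.57 in the CCl4 mice and at -1.78 to -0.71 with metformin, a difference of -0.66 ± 0.25 just outside the threshold (adjusted p = 0.0511 in limma). It passed without CCl4 mouse 1 (-0.81, adjusted p = 0.0314) or metformin mouse 3 (-0.77, adjusted p = 0.0245; range over the fits 0.00842 to 0.298). With all mice, it passed with spike-in scaling (-1.21, adjusted p = 0.00842 in limma) and with every probe as a feature (adjusted p = 0.0493). The same held with only probes well above background on all arrays. Ctsg, a serine protease of neutrophil granules, spread from -3.27 to -0.75 in the metformin mice and from -2.72 to -1.15 in the CCl4 mice, and its SD between mice of a group was larger than that of 98% of features. Ctss, a protease of antigen-presenting cells, differed by -0.19 ± 0.19, and Ctsw, of cytotoxic lymphocytes, by -0.041 ± 0.17, with a positive value of 0.15 without CCl4 mouse 4. Ctsz, a carboxypeptidase, differed by -0.19 ± 0.097, and Ctso, a little-studied cysteine protease, by -0.45 ± 0.24. In Ctso, CCl4 mouse 1 stood at -0.10 and the other CCl4 mice at -1.39 to -1.28, within the metformin range of -1.74 to -1.19. Ctsc, which activates the serine proteases of immune granules, differed by 0.21 ± 0.24, or -0.35 with spike-in scaling.

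**Figure D4:**
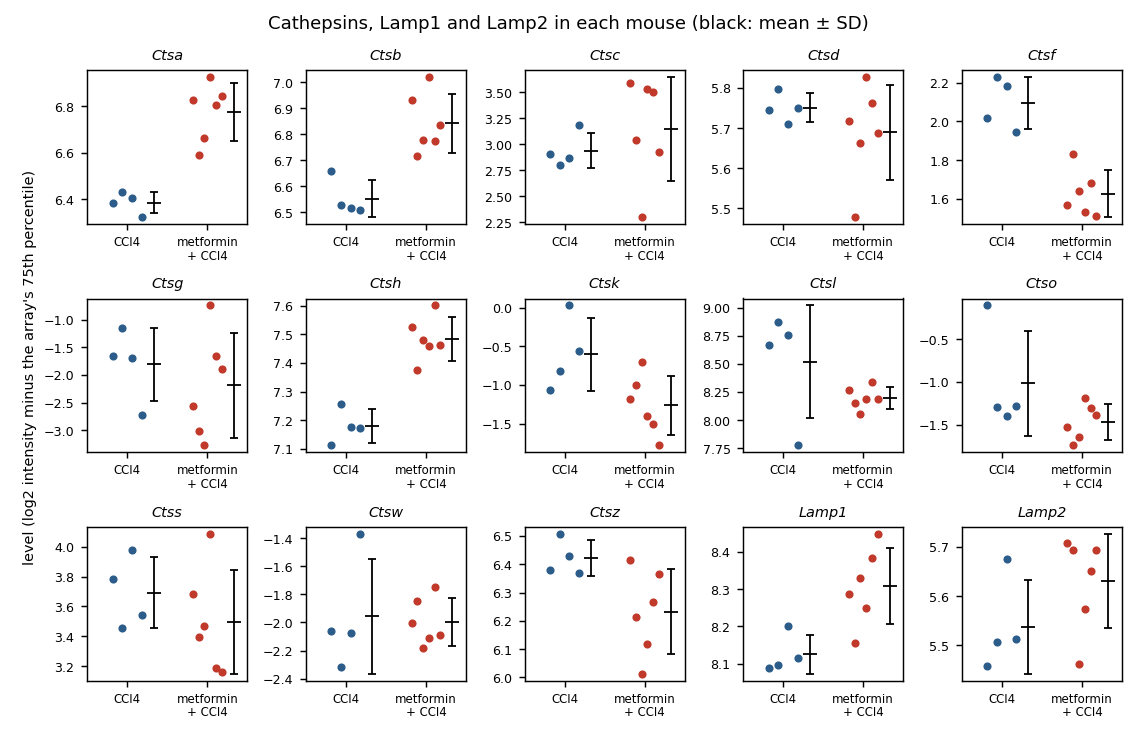
Level (log2 intensity minus the array's 75th percentile, y axis) of the 13 tested cathepsins, Lamp1 and Lamp2 in the 4 CCl4 (blue) and 6 metformin plus CCl4 (red) mice; black bars are mean ± SD, and each panel has its own scale. Ctsa, Ctsb and Ctsh lie higher and Ctsf lower in the red group without overlap, on a scale where spike-in scaling would lower the red mean by 0.55 against the blue mean; in Ctsl 1 blue point at 7.78 lies below all others.

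Neither of the Lamp genes, whose products are the main glycoproteins of the lysosomal membrane, was called. Lamp1 was at 8.09, 8.10, 8.20 and 8.12 in the CCl4 mice and at 8.16 to 8.45 (median 8.31) with metformin. The groups overlapped at their edges, and the difference was 0.18 ± 0.083 (adjusted p = 0.0964 in limma), or -0.37 with spike-in scaling. Lamp2, needed for fusion of autophagosomes with lysosomes and for chaperone-mediated autophagy, was at 5.46, 5.51, 5.68 and 5.51 against 5.46 to 5.71 (median 5.67). These overlapped fully, with a difference of 0.093 ± 0.086 (adjusted p = 0.407 in limma), or -0.46 with spike-in scaling. Against a median of 0.11 over all features, these differences were close to that of the typical feature.

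Of the 50 genes, 15 were not tested because no probe of theirs was well above background on enough arrays of either group. They include 10 cathepsins, of which 9 lie on chromosome 13: Cts3, Cts6, Cts7, Cts8, Ctsj, Ctsm, Ctsq and Ctsr, known as rodent cathepsins of the placenta, and the cathepsin L-like gene Ctsll3. The remaining one was Ctse, an aspartic protease known from stomach and immune cells. The V-ATPase genes not tested were Atp6v0a4, Atp6v1b1 and Atp6v1g3, forms known from the acid-secreting cells of the kidney, Atp6v1c2 and Atp6ap1l. Only Ctsm, Atp6v0a4 and Atp6ap1l had any array well above background, each on at most 1 array of a group.

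For 7 members 2 kept probes were available, and they show how far a call rests on the probe. With every probe as its own feature, 45.2% of all probes were called, and in 45.1% of genes with over 1 kept probe some but not all probes were called. Ctsa and Atp6ap1 were called by both probes. Atp6v1a was not called by its brighter probe, but its other probe was at 0.82, 0.94, 1.01 and 0.95 in the CCl4 mice and at 1.32 to 1.58 with metformin, a rise of 0.52 ± 0.083 (adjusted p = 6.87e-04 in limma) that averaging both probes kept (0.34, adjusted p = 0.00733), while spike-in scaling, which takes off 0.55, leaves neither probe positive (-0.39 for the brighter one). Both of its probes carry the same transcript accession.

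Ctsd likewise had a second probe, at 2.76, 2.46, 2.27 and 2.58 against 1.70 to 2.32, which fell by 0.53 ± 0.14 (adjusted p = 0.0113 in limma) while the brighter one did not pass. The second Ctsc probe, which carries another transcript accession, was at -4.68, -5.48, -5.39 and -3.55 in the CCl4 mice, where it was well above background on 1 of 4 arrays, and at -3.53 to -2.64 on the metformin arrays, where it was so on all 6. This probe was kept through the metformin arrays alone, and most CCl4 values lie at background, so no size of change is given for it beside the 0.21 ± 0.24 of the brighter probe. The second Lamp2 probe, with the accession of another Lamp2 transcript, was at 5.71, 5.76, 5.65 and 5.69 against 5.23 to 5.67, a difference of -0.27 ± 0.11 (adjusted p = 0.0646) opposite in sign to the first. Which of the disagreeing probes follows its transcript was not tested.

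**Figure D5:**
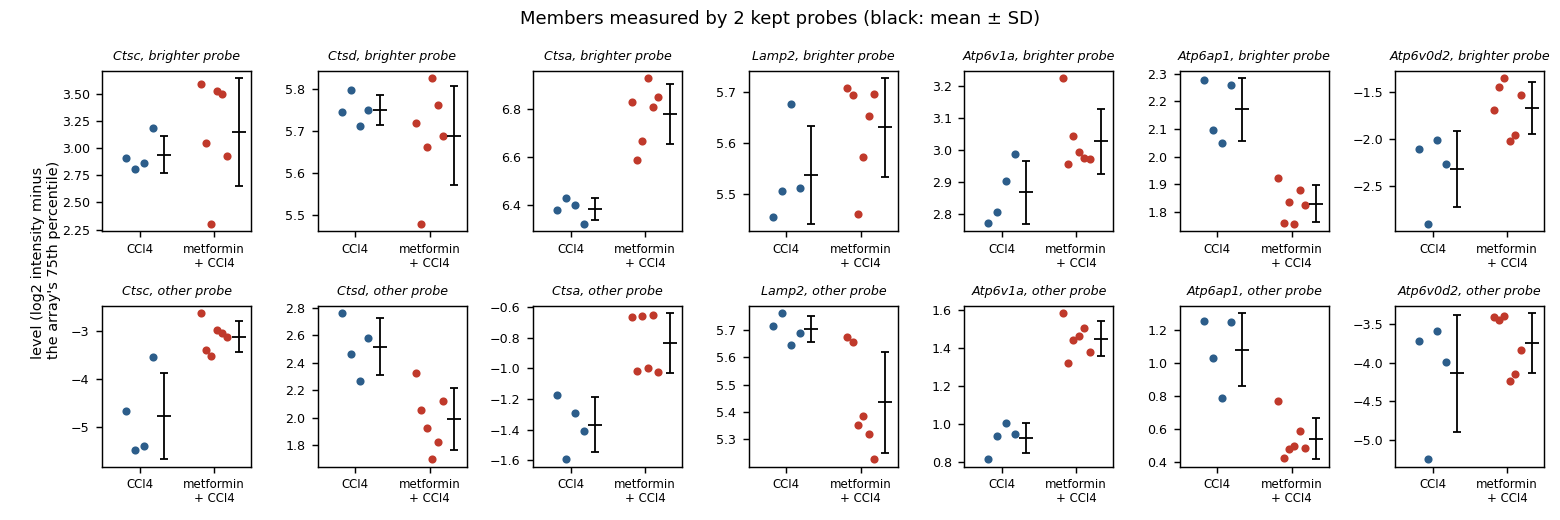
Level (log2 intensity minus the array's 75th percentile, y axis) by the brighter (top) and the other (bottom) kept probe of the 7 members with 2 kept probes, in the 4 CCl4 (blue) and 6 metformin plus CCl4 (red) mice; black bars are mean ± SD and each panel has its own scale. Ctsa rises and Atp6ap1 falls by both probes (the brighter ones stand at -0.16 and -0.90 with spike-in scaling), whereas Ctsd falls and Atp6v1a rises by the other probe only, the rise of Atp6v1a (0.52) being less than the 0.55 that spike-in scaling takes off; the other Ctsc probe was well above background on only 1 CCl4 array.

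Genes that assemble or regulate the pump moved in both directions as well. Of 12 tested partners, 5 rose and 4 fell (75% called, beside 44% of all features; median 0.14). Rogdi and Dmxl2, both linked to the complex that rejoins V1 with V0, fell by 0.87 ± 0.16 and 0.64 ± 0.19, while Dmxl1, a paralog of Dmxl2, was higher at 0.60 ± 0.19 and the assembly factor Tmem199 at 0.66 ± 0.17 (adjusted p = 0.00188, 0.0198, 0.0259 and 0.00989 in limma); the risers were at 0.050 and 0.11 with spike-in scaling. Tcirg1, which encodes the a3 form of the large V0 subunit but lacks an Atp6v symbol, fell by 0.54 ± 0.097 (adjusted p = 0.00140 in limma); it is named after its value was seen, as the remaining form of that subunit. So of the 3 forms tested, a1 and a3 fell and a2 rose (0.28 with spike-in scaling).

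Other lysosomal genes were called in both directions, beside 44% called of all features. Of 43 other acid hydrolases and their helpers, 12 rose and 9 fell (48.8%, median 0.11): Gm2a, the activator protein for ganglioside breakdown, fell by 1.26 ± 0.12, the phosphatase Acp2 fell by 0.75 ± 0.12, and the hyaluronidase Hyal2 was higher at 0.85 ± 0.13 (0.29 with spike-in scaling). Of 31 other lysosomal membrane genes, 8 rose and 7 fell (48.4%, median 0.036): the iron transporter Slc11a2, the arginine sensor Slc38a9 and the calcium channel Mcoln1 were 2.77-fold, 2.01-fold and 1.77-fold higher, with log2 values still positive after spike-in scaling (0.91, 0.45 and 0.27), while the sialic acid exporter Slc17a5 fell by 1.11 ± 0.39. Of 14 genes that sort hydrolases to lysosomes, 4 rose and 3 fell (50%, median 0.035), with the adaptors Gga1 at -1.01 and Gga3 at 0.52 and the retromer subunits Vps35 at -0.72 and Vps29 at 0.52; Gga3 and Vps29 were at -0.035 and -0.034 with spike-in scaling. Of 8 cathepsin inhibitors, 2 fell and none rose (25%, median 0.029): the stefins Stfa2, at -1.43 ± 0.15, and Stfa2l1. The latter was kept through the CCl4 arrays alone (well above background on 3 of 4, and on 1 of 6 metformin arrays), so no size is given for it.

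Among regulators of lysosomal transcription, 3 had log2 fold changes above the highest of the 35 members. Of 11 tested, 4 rose and 1 fell (45.5%, median 0.26). Tfeb itself rose by 1.07 ± 0.20 (2.10-fold; adjusted p = 0.00158 in limma) and by 0.52 with spike-in scaling. Flcn, encoding folliculin, a protein known to restrain TFEB, rose by 1.79 ± 0.14, and its partners Fnip2 and Fnip1 by 1.22 ± 0.13 and 0.71 ± 0.13 (adjusted p = 2.63e-05, 9.67e-05 and 0.00198 in limma), with 1.24, 0.67 and 0.15 after spike-in scaling. The gene that fell was Rraga, a GTPase of the mTORC1 platform, at -0.45 ± 0.098, named after its value was seen. The related factors Tfe3 and Mitf were not called (-0.18 ± 0.10 and 0.36 ± 0.17). These arrays measure transcripts, and whether TFEB protein or its location in the cell differed was not measured.

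Because TFEB acts through CACGTG, the promoters of the members were searched for it, on the RefSeq windows of build GRCm38.p6 that run from 250 bases before to 50 bases after each gene's start. CACGTG reads the same on both strands, as does the longer TCACGTGA, of which it is the core. Of the 50 genes, 39 had a promoter in the table. CACGTG was present in 10 of these 39 genes (25.6%), beside 8.09% of all 27025 genes in the table, and TCACGTGA in 5 (12.8%), beside 1.12%. The stretches before the start are shown for 6 genes of different behaviour, 5′ to 3′ on the gene's strand, with CACGTG in capitals. Ctsa lies at chr2:164833734-164833772 on the plus strand, Atp6v0b at chr4:117887330-117887392 on the minus strand, Lamp1 at chr8:13159073-13159160 on the plus strand, Ctsd at chr7:142387893-142387952 on the minus strand, Atp6v1a at chr16:44139358-44139417 on the minus strand and Ctsf at chr19:4855059-4855118 on the plus strand.
Ctsa: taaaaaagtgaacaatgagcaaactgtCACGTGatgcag
Atp6v0b: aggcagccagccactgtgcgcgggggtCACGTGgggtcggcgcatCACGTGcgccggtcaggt
Lamp1: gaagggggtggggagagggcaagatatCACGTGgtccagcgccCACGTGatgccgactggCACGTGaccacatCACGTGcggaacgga
Ctsd: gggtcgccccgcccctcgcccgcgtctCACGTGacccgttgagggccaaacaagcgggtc
Atp6v1a: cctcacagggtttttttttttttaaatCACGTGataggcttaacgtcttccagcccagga
Ctsf: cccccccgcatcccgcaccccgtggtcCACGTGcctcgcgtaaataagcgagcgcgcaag

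The element was found in genes of every call. It was present in 1 of the 3 higher genes with a promoter in the table (Ctsa), in 3 of the 7 lower ones (Atp6v0b, Atp6v0d1 and Ctsf), in 5 of the 16 that were tested but not called (Ctsd, Ctsl, Lamp1, Atp6v1a and Atp6v0e) and in 1 of the 13 that were not tested (Ctsll3). Lamp1, with 4 copies in 88 bases, and Ctsd, with 2 copies, were not called, and Atp6v0b, with 2 copies, fell. Ctsa, with 2 copies in a single promoter, both within TCACGTGA, was called higher (-0.16 and not called with spike-in scaling). A match describes these letters alone, and binding was not measured.

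Markers of other cell types are set beside the members, against 44% called and 16.7% called lower of all features. Of 21 tested macrophage markers, 8 fell and none rose (38.1% called, median -0.59), and their mean level per array was 1.28 to 1.94 with metformin and 1.84 to 2.11 with CCl4; Ly6c2 and Gpnmb were not tested. Of 13 neutrophil and mast cell markers, 7 fell and 1 rose (61.5%, median -1.01), with mean levels of -1.37 to 0.63 and -0.16 to 0.82, and the mast cell genes Cma1, Cpa3 and Mcpt4 were not above background on enough arrays to be tested. Markers of stellate cells and myofibroblasts fell in 7 of 11 (median -0.89), from 0.14 to 0.74 per CCl4 array to -0.72 to 0.012 per metformin array. Those of cholangiocytes fell in 4 of 7 and rose in 1, of endothelial cells fell in 3 of 9, and of lymphocytes and dendritic cells fell in 1 and rose in 1 of 12. Among the counted falls, Krt7 and Epcam (cholangiocytes) and Cxcr2 and Mmp8 (neutrophils) were kept through the CCl4 arrays alone. In that order, they were well above background on 4, 1, 2 and 4 metformin arrays and on 4, 3, 4 and 4 CCl4 arrays. Such genes were admitted by their CCl4 values, so no conclusion is drawn from their falls. Hepatocyte markers were detected for all 12 genes, as the liver label implies, with mean levels of 8.77 to 9.06 and 9.02 to 9.30, and 3 of the 12 fell. The part of these cell types in the values of the members and of Tcirg1 was not tested.

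The authors' deposited table lists 4595 probes with log2 values per mouse that, per its first line, were quantile normalized and passed a false discovery rate below 0.01 and a fold change above 1.5. It holds 8.25% of all probes and 5 of the 57 member probes (8.77%), all of V-ATPase genes. Computed from the values in the authors' deposited table, the differences were 0.81 for Atp6v0a2, -0.66 for Atp6v0c, -0.79 for Atp6v0d1, -0.84 for Atp6v1e2 and -0.70 for Atp6v1h. No probe of a cathepsin, of Lamp1 or of Lamp2 was in that table.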

How the data were processed

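Spot values were read from the scanner files. The deposited intensity values are linear, background-subtracted and detrended within each array by Agilent Feature Extraction 10.7.3.1, per the file headers, and had not been scaled between arrays. The authors' deposited table holds quantile-normalized log2 values per mouse for a filtered list of probes, per its first line; the test behind its filter is not given in the sources used here, and it served as an alternative. Per the labels' protocols, 100 ng of RNA with an integrity number above 8 was labelled with Cy3.

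Control and outlier-flagged spots were left out and spots of a probe averaged. Each array was scaled to its 75th percentile (59305 non-control spots, 55681 probes), then taken to log2. A probe was kept if, in 1 group or the other, at least 75% of the arrays showed it well above background (29575 probes), and a gene was represented by its brightest kept probe. Of all probes, 28664 were named through their accession in the RefSeq table and 27017 stayed unnamed, as features of their own; 20 features had a missing value, none of them a member's. The comparison of 6 with 4 mice was fitted with limma 3.58.1 in R 4.3.3 (lmFit and eBayes, no covariate, two-sided, Benjamini-Hochberg adjustment over all 25171 features, of which 14531 were named genes), and was tested on simulated data first. P-values measure the spread between these mice. Precision is limited by the number of arrays.

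Every member is named; values per mouse are given for called members whose groups did not overlap and for Lamp1, Lamp2, Ctsb, Ctsd and Ctsl, and for others where a result turned on 1 mouse or probe, and of each other lysosomal list up to 4 called genes with the largest change. Lists of cell type markers are given by counts and levels, although the rule allows up to 4 called genes of each to be named. Called markers are named only where they were kept through the CCl4 arrays alone. One further gene that the rule would name is not reported here. Members and gene lists were chosen with earlier results of these data known. The 22 alternative fits were another background correction (on spot medians), 3 scalings, 2 filters, 2 probe rules, array weights, slide row (2 ways), the mouse number as a block, and leaving out each of the 10 mice.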

Additional observations from a re-analysis of the deposited data

Results flagged for a closer look

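In each group of each tested member, the highest or lowest mouse was set against the spread of its group. Of 70 such groups, 7 (10%) held a mouse whose gap to its nearest neighbour took up an unusually large part of the group's range, where chance gives about 1 in 20. Metformin mouse 1 was the high one in 3 V-ATPase genes: Atp6ap2 (2.79, next 2.42), Atp6v0d1 (3.74, next 3.56) and Atp6v1a (3.23, next 3.04). Among the CCl4 mice, mouse 1 was high in Ctsb (6.66, next 6.53) and in Ctso (-0.10, next -1.28), mouse 3 was high in Atp6v1c1 (2.31, next 2.20), and mouse 4 was low in Atp6v1e1 (4.75, next 4.87). Atp6v0d1 was called in every fit that left out 1 mouse.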

How the results depend on the processing

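Counts of called members held best for lower V-ATPase genes (8; 7 to 12 under the other scalings, filters, probe rules, background correction, array weights and slide row as a covariate), and fell to 4 with slide row 1 only and 5 with the replicate block. Higher V-ATPase genes (4) became 2 after median scaling, 0 with spike-in scaling, and 1 each with slide row as a covariate, with row 1 only and with the block. Higher cathepsins (3) became 1 after median scaling or quantile normalization and 0 with spike-in scaling, either slide-row fit or the block. Lower cathepsins (1) became 2 after quantile normalization, with only probes well above background on all arrays, with the mean of the probes or with every probe as a feature, 7 with spike-in scaling and 0 with row 1 only. Leaving out 1 mouse gave 2 to 3 higher and 1 to 2 lower cathepsins (2 without metformin mouse 3 or CCl4 mouse 1 or 4) and 3 to 4 higher and 7 to 9 lower V-ATPase genes. Over all features, calls went from 11072 to 6657 with row 1 only and 7249 with the block, and higher calls were 62.0% of them, or 9.61% with spike-in scaling. The mouse numbers did not pair the groups (correlations of same-numbered mice -0.15 to 0.078).

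Signs turned as follows. With spike-in scaling: Atp6ap2 -0.53, Atp6v0e -0.49, Atp6v1a -0.39, Atp6v1d -0.13, Atp6v1e1 -0.42, Atp6v1f -0.27, Atp6v1g1 -0.44, Ctsa -0.16, Ctsb -0.26, Ctsc -0.35, Ctsh -0.25, Lamp1 -0.37 and Lamp2 -0.46. After median scaling: Atp6ap2 -0.043 and Atp6v0e -0.0017. After quantile normalization: Atp6ap2 -0.070, Atp6v0e -0.045 and Lamp2 -0.053. With the mean of the probes Lamp2 was at -0.087, and with array weights Ctsw at 0.073. In both slide-row fits Atp6v1c1 was at 0.042 and Ctsw at 0.032. Leaving out 1 mouse, Atp6ap2 ranged from -0.061 (metformin mouse 1; -0.014 and -0.018 for CCl4 mouse 1 and 4) to 0.10, and Ctsw from -0.16 to 0.15 (CCl4 mouse 4). Row 1 holds 2 metformin arrays, so fewer samples enter that fit, and with row as a covariate the estimate rests on the same arrays. Otherwise the cause was not tested. All 35 tested members were well above background on all 10 arrays by the probe used.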
